A study of Capra hircus with 13 samples.

Results

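A set of 22 genes was low in every library of goat MII oocytes and present in every library of 4-cell stage embryos. They were chosen by their measured values: a name had to be listed once in the tables of MII oocytes, 4-cell and 8-cell stage embryos, with an FPKM below 1 in each MII library and at least 5 in each 4-cell library. FPKM is the number of sequenced fragments per kilobase of exon, scaled to the total of fragments in a library. Of 18159 names in all 3 tables, 25 passed these limits, and 3 of them were set aside by name (*ARGFX*, *DUXA* and *SUPT4H1*) since these names and name families were kept out of the set. The difference between 4-cell stage embryos and MII oocytes is therefore what selected the genes, and it is described below without a test. "Switched on" refers to these limits only, since the libraries hold polyadenylated RNA and not transcription itself, and an FPKM is a share of a library and not an amount per embryo.

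An MII oocyte is a mature egg arrested in the second meiotic division. It is largely silent in transcription, and the first cleavages run on mRNA stored by the oocyte. During the maternal-to-zygotic transition this stored mRNA is degraded in steps while the genome of the embryo is activated, with few genes at first and many more at later cleavages. YTHDF2 is a cytoplasmic protein that binds mRNA carrying N6-methyladenosine and brings it to the decay machinery.

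Untreated material was sequenced at MII, at 4 cells and at 8 cells, with 3 libraries each. Injected embryos were collected at 8 cells after either a negative control siRNA (NC) or *YTHDF2* siRNA, with 2 libraries each. All embryos were fertilized in vitro, the siRNA (20 µM) was injected into the cytoplasm of fertilized embryos 8 h after fertilization, and each injected library was a pool of whole embryos amplified with Smart-seq2. The study used 2 siRNAs whose sense strands were as follows, with the overhang in capitals.
s28148: gggcugauauugcuagcaaTT
s28147: gcaugaauacuauagaccaTT
In the injected embryos *YTHDF2* was at 111.5 and 159 FPKM in the NC libraries and at 8.07 and 4.47 FPKM in the *YTHDF2* siRNA libraries (log2 fold change -4.25, SE 0.43, limma adjusted p = 0.000367), so the targeted mRNA was lower in both libraries labelled as knockdown. The untreated libraries came from earlier studies of the authors that are not assigned to stages, so stage and study cannot be told apart, and the sources do not state whether the untreated replicates were separate pools, so the p-values measure only the spread between these libraries. The values stepped by whole fragments, which returned the fragments behind the FPKM, 20167471 to 25199211 per untreated library on the shared genes. For the injected embryos the values did not step by whole fragments at the gene lengths of the untreated libraries, so they gave no depth. Of 8 blood cell markers only *PTPRC* and *CD3E* were listed, and they summed to at most 1.98 FPKM in every library, 13 oocyte markers were at 1 FPKM or more in every library of each untreated stage, and the summed markers of cumulus and granulosa cells were 71.7 to 93.4 FPKM in MII, 104 to 112 FPKM in 4-cell and 141 to 201 FPKM in 8-cell libraries. Of the 17 cumulus and granulosa markers listed, 6 were at 1 FPKM or more in each MII, 8 in each 4-cell and 9 in each 8-cell library, *AMH* was at 0 in every library, and the part of such cells in the results was not tested. The 14 oocyte markers listed summed to 5995 to 6461 FPKM in MII, 10614 to 11840 FPKM in 4-cell and 6843 to 9083 FPKM in 8-cell libraries. For blastocyst lineages the 15 markers listed summed to 12.5 to 13.7, 7.67 to 14.5 and 17.9 to 58.9 FPKM. Neither sum overlapped between 4-cell and 8-cell libraries, and their part in the results was not tested.

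Most of the genes have no name. Of the 22, 20 carry only a LOC number (90.9%), which the annotation gives to a locus without an established symbol, against 18.5% of the 18159 names and 6.79% of the 4686 other genes with at least 5 FPKM in each 4-cell library. The others are *RSRP1*, which encodes a protein rich in arginine and serine, and *rna49413*, which had no entry in the reference table used here. Of the 21 genes with an entry, 16 were annotated as protein coding and 5 as pseudogenes (23.8%, against 6.49% of all matched names), and 15 had a single transcript model. Lists of known genes by role go by symbol, so only *RSRP1* could have been in one, and it was in none. The names of 3667 embryo genes were not listed for MII, and 108 of these were at 5 FPKM or more in each 4-cell library, so they could not enter the set. The authors kept uniquely mapped reads, so fragments from near-identical copies of a gene would have been dropped or assigned to one of them, and the levels of unnamed loci and pseudogenes are uncertain for this reason.

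In MII oocytes 10 of the 22 genes had 3 or fewer fragments in the 3 libraries together, and the others had 4 to 621, with *LOC102175174* at 621 and *LOC108635041* at 169. *LOC102190105*, *LOC102179871*, *LOC102173807*, *LOC102177051* and *LOC102190382* had 0 fragments in each MII library, and 5 more genes had 1 to 3 fragments. Against a floor of 3 fragments in a library, which covers counting error only, the mean 4-cell level was at least 599-fold higher for *LOC102190105*, 348-fold for *LOC102179871*, 233-fold for *LOC102177051*, 185-fold for *LOC102190382* and 76.4-fold for *LOC102173807*. *LOC108634189* had the highest 4-cell level of the set, at 368, 457 and 338 FPKM, from 14360, 16694 and 13178 fragments, where the MII libraries held 1, 2 and 1 fragments. It was followed by *LOC102191731* at 86.0, 94.3 and 68.5 FPKM, *LOC108634447* at 50.8, 55.8 and 62.9 FPKM and *LOC102181711* at 31.6, 80.8 and 47.8 FPKM, and no other gene reached a mean of 50 FPKM. The 4-cell values of *LOC102191731* and *LOC108634447* did not overlap, while those of *LOC108634447* and *LOC102181711* did. *rna49413* rested on few fragments, 19, 19 and 20 in the 4-cell libraries.

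Just inside the limits, *LOC102186003* had a lowest 4-cell value of 5.19 FPKM, *LOC102175174* of 5.81 FPKM and *LOC102181365* of 6.11 FPKM, and *LOC108635041* reached 0.994 FPKM in an MII library, *LOC102175174* 0.989 FPKM and *LOC108636355* 0.953 FPKM. Just outside, *LOC102181074*, *LOC102187787* and *LOC102189936* had lowest 4-cell values of 4.90, 4.58 and 4.34 FPKM. *LOC102176222* was left out by an MII value of 1.09 FPKM although it was at 94.9 FPKM or more in each 4-cell library, and *VPS52* and *LOC102168207* were left out at 1.13 and 1.14 FPKM. *LOC102175174* was the gene with the least contrast, at 0.895 to 0.989 FPKM in MII oocytes from 186 to 227 fragments, and 5.81 to 6.50 FPKM in 4-cell stage embryos.

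**Figure D1:**
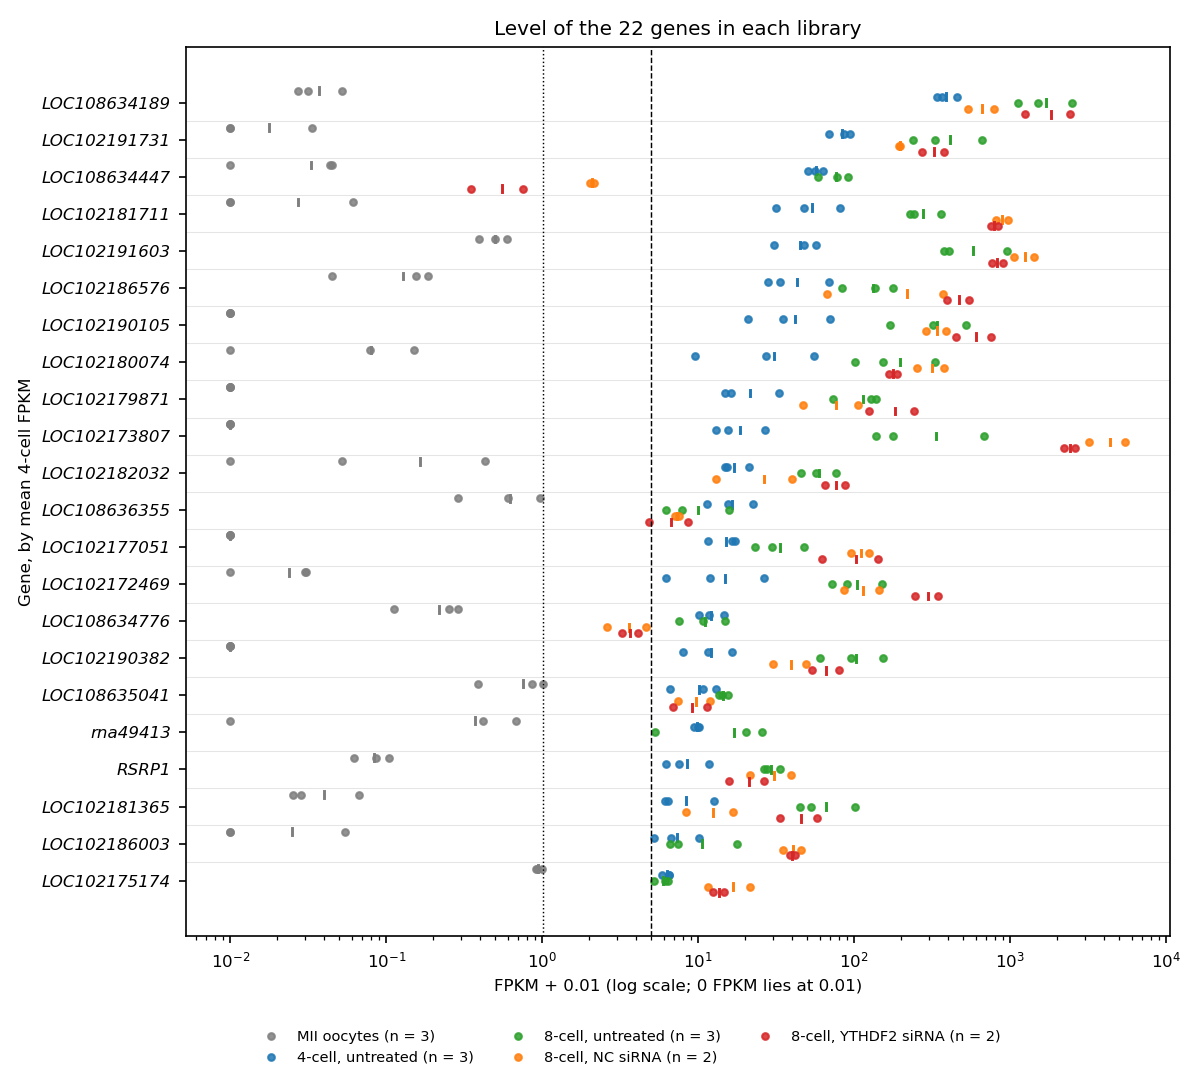
FPKM of the 22 genes in each of the 13 libraries on a log axis (0.01 added, so 0 lies at 0.01), with a point per library, a vertical tick at each group mean, and the limits of the selection at 1 FPKM (dotted) and 5 FPKM (dashed). MII points lie left of the dotted line and 4-cell points right of the dashed line by the selection, and most 8-cell points lie further right, with *LOC108634189* highest among the untreated embryos.

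The selection did not use the 8-cell libraries, and the comparison asked how the genes went on from the 4-cell stage. All 22 genes were still at 5 FPKM or more in each 8-cell library, and 7 were at 100 FPKM or more in each. Their share of the summed FPKM was 0.00129 to 0.00151% in MII, 0.184 to 0.297% in 4-cell and 0.882 to 1.71% in 8-cell libraries. *LOC108634189* alone made up 33.8 to 39.7% of the sum in the 8-cell libraries, where it ranked 12 to 25 among the genes of a library by FPKM, after 101 to 170 in the 4-cell libraries. The mean at 8 cells exceeded that at 4 cells for 19 of 22 genes, and at least 3 times as high for 14.

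**Figure D2:**
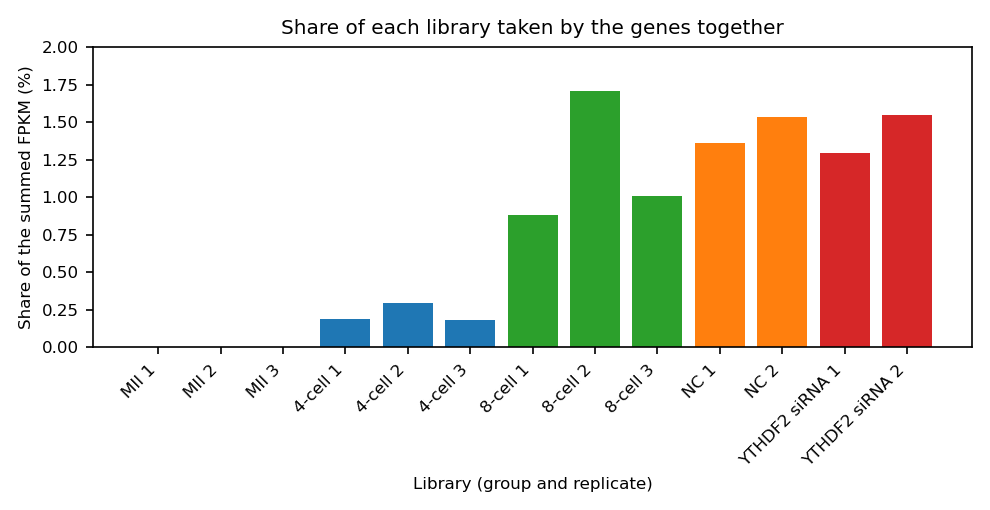
Share of the summed FPKM of each library (%, bars from 0) taken by the genes together, 22 in the untreated and 21 in the injected libraries, with no error bar since each bar is 1 library. The 4-cell libraries lie at 0.184 to 0.297%, every 8-cell library at 0.882% or more, and the NC and *YTHDF2* siRNA libraries overlap at 1.29 to 1.54%.

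From the 4-cell to the 8-cell stage 15 of the 22 genes increased by more than 2-fold with an unadjusted p under 0.05 in limma (68.2%), and 0 decreased. These are the cut-offs of the study, while the test is not, since the deposited values are FPKM and not counts. All 15 also passed with the adjusted p. The spread in this fit was estimated over all 9 untreated libraries, and so also over the MII libraries, where the selection held the genes below 1 FPKM. In a fit of the 6 embryo libraries alone 15 genes were increased and 12 of them passed with the adjusted p, without *LOC102180074*, *LOC102186576* and *LOC102177051*. Over all 9090 genes tested, 4.55% increased and 4.28% decreased by the same rule, and 2.29% and 3.17% with the adjusted p. Increases were 51.6% of all calls, and 64.0% when the libraries were set to equal summed FPKM. The selection set a floor under the 4-cell values, and among the 4686 other genes above that floor 2.58% increased and 6.85% decreased. No gene of the set had an unadjusted p under 0.05 for a fall, and limma voom on the recovered fragments also called 0 falls. In 16 of the 22 genes every 8-cell library was above every 4-cell library, and in 0 below, where 11.6% of all genes tested had every 8-cell library above. The median log2 fold change was 1.90 for the set, 0.07 for all genes tested and -0.10 for the other genes above the floor. Ranked by log2 fold change among all 9090 genes, 7 of the 22 were among the 25 furthest rises and 11 among the 100 furthest. The 8-cell replicates spread widely, and replicate 2 had the highest value of 14 of the 22 genes, where it was the highest for 35.9% of all 4708 genes above the floor. Without it 14 genes increased and 1, *LOC108636355*, decreased.

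**Figure D3:**
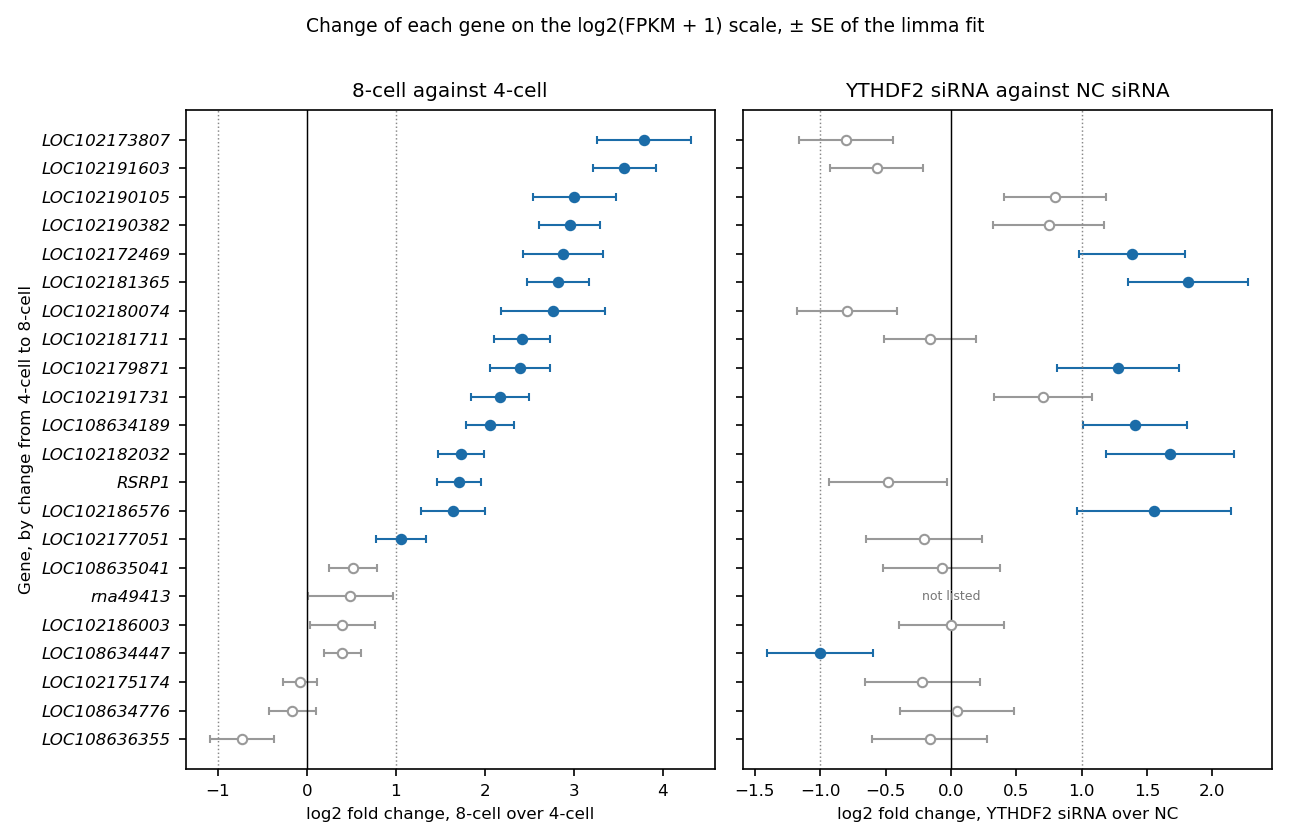
Log2 fold change (± SE, limma, log2(FPKM + 1) scale) of each gene from the 4-cell to the 8-cell stage (left, 3 against 3 libraries) and from NC to *YTHDF2* siRNA (right, 2 against 2 libraries), in the same gene order, with filled points for genes past the cut-offs for p and fold and dotted lines at 2-fold. On the left 15 points lie beyond the 2-fold line to the right, and on the right 6 lie beyond it to the right and 1 to the left.

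The furthest rises came from a pair of loci annotated as pseudogenes. *LOC102173807* was at 15.4, 26.9 and 13.1 FPKM in the 4-cell and 139, 680.4 and 178 FPKM in the 8-cell libraries (log2 fold change 3.79, SE 0.52, adjusted p = 0.00617), from 136 to 262 fragments at the 4-cell stage. *LOC102191603* was at 30.4, 56.8 and 47.5 FPKM in the 4-cell and 405, 958 and 376 FPKM in the 8-cell libraries (log2 fold change 3.57, SE 0.36, adjusted p = 0.00217). The values of both genes were higher in every 8-cell library than in any 4-cell library, and replicate 2 was the highest of each group. *LOC102180074* was at 27.2, 55.2 and 9.53 FPKM in the 4-cell and 101, 331 and 154 FPKM in the 8-cell libraries (log2 fold change 2.76, SE 0.58, adjusted p = 0.0239, and 0.0673 in the 6 embryo libraries alone), with 4-cell values spread widely between libraries and the 8-cell values apart from them. *LOC102181711* was at 31.6, 80.8 and 47.8 FPKM in the 4-cell and 357, 226 and 243 FPKM in the 8-cell libraries (log2 fold change 2.42, SE 0.32, adjusted p = 0.00496). *LOC102191731* was at 86.0, 94.3 and 68.5 FPKM in the 4-cell and 239, 663 and 330.1 FPKM in the 8-cell libraries (log2 fold change 2.17, SE 0.33, adjusted p = 0.00767), where 8-cell replicate 2 was far above the others. Neither of the last 2 genes had overlapping groups. *LOC102186576* was at 33.3, 68.4 and 27.9 FPKM in the 4-cell and 178, 84.0 and 135 FPKM in the 8-cell libraries (log2 fold change 1.64, SE 0.36, adjusted p = 0.0264, and 0.0704 in the 6 embryo libraries alone and 0.051 without the filter on low values), another annotated pseudogene, whose 8-cell replicate 2 was the lowest. *RSRP1* was at 7.47, 11.6 and 6.19 FPKM in the 4-cell and 27.4, 26.5 and 33.4 FPKM in the 8-cell libraries (log2 fold change 1.71, SE 0.25, adjusted p = 0.00689), with 8-cell libraries that lay close together.

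The 8 other genes that increased lie in 2 stretches of the annotation and are given with their neighbours below. The 7 genes without a call had 8-cell means of 0.600 to 1.73 times their 4-cell means, with adjusted p of 0.252 to 0.834. *LOC108634447* was at 50.8, 55.8 and 62.9 FPKM in the 4-cell and 77.6, 58.1 and 91.8 FPKM in the 8-cell libraries, a log2 fold change of 0.40. *LOC108635041* was at 6.57, 13.1 and 10.7 FPKM in the 4-cell and 15.6, 14.2 and 13.5 FPKM in the 8-cell libraries, a log2 fold change of 0.52, and its groups did not overlap although the change was less than 2-fold. *LOC102186003* was at 6.63, 10.1 and 5.19 FPKM in the 4-cell and 7.42, 17.8 and 6.59 FPKM in the 8-cell libraries, a log2 fold change of 0.40, where only replicate 2 was above the 4-cell libraries. These 3 genes thus ended at or above their 4-cell level in the mean. *rna49413* was at 9.44, 10.1 and 9.96 FPKM in the 4-cell and 5.26, 20.3 and 25.4 FPKM in the 8-cell libraries, a log2 fold change of 0.49, on 10 to 54 fragments per 8-cell library. Without 8-cell replicate 1 its log2 fold change was 1.13 and was called, and without 8-cell replicate 3 it was 0.091. *LOC102175174* was at 5.81, 6.47 and 6.50 FPKM in the 4-cell and 5.19, 6.42 and 6.07 FPKM in the 8-cell libraries, a log2 fold change of -0.08, with both groups at one level. The remaining pair had lower means at the 8-cell stage. *LOC108634776* was at 11.7, 14.5 and 10.2 FPKM in the 4-cell and 14.7, 10.7 and 7.51 FPKM in the 8-cell libraries, a log2 fold change of -0.16. *LOC108636355* was at 22.5, 11.4 and 15.4 FPKM in the 4-cell and 6.19, 15.6 and 7.80 FPKM in the 8-cell libraries, a log2 fold change of -0.73, where 8-cell replicate 2 lay within the 4-cell range and replicates 1 and 3 below it.

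In injected 8-cell stage embryos the question was whether less *YTHDF2* changed the level of these genes. All of them but *rna49413* were listed, 21 in number, and 19 were at 5 FPKM or more in each NC and 18 in each *YTHDF2* siRNA library. By the same cut-offs 6 of the 21 genes were increased in *YTHDF2* siRNA embryos (28.6%) and 1 was decreased (4.76%), where 9.48% of all 11004 genes tested were increased and 15.3% decreased. With the adjusted p 3 were increased and 0 decreased, against 2.06% and 5.92% of all genes. The 3 became 0 without the filter on low values, with median-ratio rescaling, with quantile normalization and with a block for replicate number. They became 1 at a pseudocount of 0.1 FPKM. The 16 oocyte markers, of which 15 were listed, summed to 1633 to 2694 FPKM in the NC and 3482 to 5545 FPKM in the *YTHDF2* siRNA libraries, with 11 and 13 at 1 FPKM or more in each library and 1 at 0 in each. The summed markers of blastocyst lineages, 14 of 16 listed, were 125 to 135 FPKM and 60.8 to 119 FPKM, with 9 and 7 at 1 FPKM or more in each library. Neither sum overlapped between the groups, and their part in the changes of the 21 genes was not tested. Every *YTHDF2* siRNA library was above every NC library for 9 genes, against 30.3% of all genes tested, and below for 4, against 30.7%. The median log2 fold change was 0.00 for the 21 genes and 0.01 for all genes, with 11 of the 21 genes above 0. All 6 increased genes were among the 15 that rose from the 4-cell to the 8-cell stage, and the median of those 15 was 0.75 on the log2 scale, while that of the 6 others listed was -0.12, a difference that was not tested. Without NC replicate 2, which held the lower NC value of each increased gene, 2 genes remained increased, *LOC102181365* and *LOC108634189*, and without *YTHDF2* siRNA replicate 2 the count was 4.

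The increased genes were these. *LOC102181365* was at 16.6 and 8.29 FPKM in the NC and 33.4 and 57.4 FPKM in the *YTHDF2* siRNA libraries (log2 fold change 1.81, SE 0.46, adjusted p = 0.0305). *LOC102182032* was at 39.7 and 12.99 FPKM in the NC and 65.0 and 86.9 FPKM in the *YTHDF2* siRNA libraries (log2 fold change 1.68, SE 0.49, adjusted p = 0.0501). *LOC108634189* was at 787 and 539.6 FPKM in the NC and 1243 and 2400.1 FPKM in the *YTHDF2* siRNA libraries (log2 fold change 1.41, SE 0.40, adjusted p = 0.0443). These 3 lie next to one another or close by in the annotation, and in each the *YTHDF2* siRNA libraries were above both NC libraries. *LOC102172469* was at 143 and 86.0 FPKM in the NC and 245 and 346 FPKM in the *YTHDF2* siRNA libraries (log2 fold change 1.39, SE 0.41, adjusted p = 0.0495). *LOC102179871* was at 106 and 47.2 FPKM in the NC and 124 and 242 FPKM in the *YTHDF2* siRNA libraries (log2 fold change 1.28, SE 0.47, adjusted p = 0.0964). *LOC102186576* was at 372 and 66.9 FPKM in the NC and 395 and 548 FPKM in the *YTHDF2* siRNA libraries (log2 fold change 1.55, SE 0.59, adjusted p = 0.106). In the last of these, NC replicate 1 was close to the *YTHDF2* siRNA libraries and NC replicate 2 far below, and the log2 fold change without replicate 2 was 0.32. The adjusted p of *LOC102182032*, *LOC102179871* and *LOC102186576* missed 0.05.

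The gene called decreased, *LOC108634447*, was at 2.00 and 2.12 FPKM in the NC and 0.740 and 0.340 FPKM in the *YTHDF2* siRNA libraries (log2 fold change -1.003, SE 0.40, adjusted p = 0.121). Its change was at the edge of 2-fold, at a low level in both groups, and was not called without either *YTHDF2* siRNA library, without NC replicate 2, or when libraries were set to equal summed FPKM or quantile normalized. The other genes did not pass the rule, with adjusted p of 0.152 to 0.996. *LOC102173807* was at 3203 and 5483 FPKM in the NC and 2605 and 2214 FPKM in the *YTHDF2* siRNA libraries, a log2 fold change of -0.80. *LOC102191603* was at 1053 and 1419 FPKM in the NC and 759 and 896 FPKM in the *YTHDF2* siRNA libraries, a log2 fold change of -0.57. *LOC102180074* was at 253 and 374 FPKM in the NC and 168 and 187 FPKM in the *YTHDF2* siRNA libraries, a log2 fold change of -0.79. In these 3, both *YTHDF2* siRNA libraries were below both NC libraries, by less than 2-fold. *LOC102191731* was at 197 and 195 FPKM in the NC and 272 and 376 FPKM in the *YTHDF2* siRNA libraries, a log2 fold change of 0.70, with both *YTHDF2* siRNA libraries above both NC libraries. *LOC102181711* was at 970.2 and 806 FPKM in the NC and 753 and 831 FPKM in the *YTHDF2* siRNA libraries, a log2 fold change of -0.16. *RSRP1* was at 39.3 and 21.4 FPKM in the NC and 15.8 and 26.6 FPKM in the *YTHDF2* siRNA libraries, a log2 fold change of -0.48. The groups of *LOC102181711* and *RSRP1* overlapped. *LOC102186003*, *LOC102175174*, *LOC108635041*, *LOC108636355* and *LOC108634776*, all without a call from the 4-cell to the 8-cell stage, had overlapping groups and log2 fold changes of -0.22 to 0.05.

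Levels in the injected and in the untreated 8-cell stage embryos are set side by side only, because the tables were normalized apart. The steps of their values also differed, so FPKM may not be the same measure in both, which was not tested. The mean of the NC libraries was above that of the untreated 8-cell libraries for 10 of 21 genes. *LOC102173807* was at 139, 680.4 and 178 FPKM in untreated 8-cell libraries against 3203 and 5483 FPKM in NC libraries, where it was the highest of the set. *LOC108634447* went the other way, with 77.6, 58.1 and 91.8 FPKM against 2.00 and 2.12 FPKM. *LOC102186003* was at 7.42, 17.8 and 6.59 FPKM against 45.2 and 35.1 FPKM.

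Where the genes lie in the annotation was not part of the selection. Of the 21 genes with an entry, 6 lay within 9 consecutive annotated genes that end beside *FOLH1B*, with *NOX4* and *TYR* next to it. The other 3 of these 9 genes, *LOC102178721*, *LOC108634190* and *LOC102178164*, were not listed for MII and could not be selected. The genes before them were examined after these values were seen, and 4 were added, which makes a stretch of 13 annotated genes from *LOC102178442* to *LOC102181365*. Its ends were set where the rise stopped, so the counts over the 13 genes depend on that choice. The next gene on the outer side, the pseudogene *LOC102179165*, had means of 0.48 FPKM in 4-cell and 0.34 FPKM in 8-cell libraries. In 12 of the 13 every 8-cell library was above every 4-cell library and at 5 FPKM or more. The exception was the pseudogene *LOC102180286*, which stayed at 0 to 0.36 FPKM in the embryo libraries. Over all genes tested the share with every 8-cell library above every 4-cell library was 11.6%. Of the 8 genes of the stretch listed for MII, 6 were below 1 FPKM in each MII library by the selection, and *LOC102178442* and *LOC102180826*, which were not selected, were below it too. *FOLH1B* at the other end was at 0 to 0.32 FPKM in the 4-cell and 8-cell libraries.

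Within this stretch *LOC102190105* was at 35.0, 69.8 and 21.0 FPKM in the 4-cell and 169.6, 524 and 322 FPKM in the 8-cell libraries (log2 fold change 3.00, SE 0.47, adjusted p = 0.00817), and it is annotated as a pseudogene. *LOC102190382* was at 8.01, 16.4 and 11.6 FPKM in the 4-cell and 94.7, 154 and 60.7 FPKM in the 8-cell libraries (log2 fold change 2.95, SE 0.35, adjusted p = 0.00338). *LOC102181365* was at 6.34, 12.6 and 6.11 FPKM in the 4-cell and 44.99, 101 and 53.0 FPKM in the 8-cell libraries (log2 fold change 2.82, SE 0.35, adjusted p = 0.0039). These 3 rose the furthest among the selected genes of the stretch, and each had its highest 8-cell value in replicate 2. *LOC108634189* was at 368, 457 and 338 FPKM in the 4-cell and 1114, 2475 and 1503 FPKM in the 8-cell libraries (log2 fold change 2.06, SE 0.27, adjusted p = 0.00474), or 41083, 92499 and 61988 fragments at the 8-cell stage. *LOC102182032* was at 21.0, 14.9 and 15.3 FPKM in the 4-cell and 56.5, 76.7 and 45.8 FPKM in the 8-cell libraries (log2 fold change 1.74, SE 0.26, adjusted p = 0.0074). At a pseudocount of 0.1 FPKM the adjusted p of *LOC102182032* in limma was 0.0737. *LOC102177051* was at 17.2, 11.5 and 16.4 FPKM in the 4-cell and 23.0, 47.7 and 29.7 FPKM in the 8-cell libraries (log2 fold change 1.06, SE 0.28, adjusted p = 0.0493), the smallest rise among the 15 and one that was not called without 4-cell replicate 2 or 8-cell replicate 2. Its adjusted p was 0.102 in the 6 embryo libraries alone and 0.0353 to 0.0975 under the other pseudocount, no filter and the 3 rescalings. Of the genes that were not selected, *LOC102178164*, which was not listed for MII and so not tested, was at 57.5, 68.1 and 42.8 FPKM and then 216, 285 and 218 FPKM. *LOC102180826* rose from 8.67, 9.36 and 3.89 FPKM to 48.0, 34.0 and 39.4 FPKM (log2 fold change 2.38, SE 0.30, adjusted p = 0.00439).

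In the injected embryos 8 of the 12 genes of the stretch that were tested were increased in *YTHDF2* siRNA embryos and 0 decreased, 6 of them with the adjusted p, and 11 of 12 had a log2 fold change above 0, with a median of 1.46. Without NC replicate 2 the count was 6, with 0 by the adjusted p, and without *YTHDF2* siRNA replicate 2 it was also 6, with 2 by the adjusted p. The 6 by the adjusted p became 0 without the filter on low values and 2 with median-ratio rescaling, quantile normalization or a block for replicate number. The genes at the ends that were left out went the other way, with a log2 fold change of -0.73 for *LOC102179165* (adjusted p = 0.254) and -0.96 for *FOLH1B* (adjusted p = 0.132), neither called. The background of increased genes over all genes tested was the 9.48% given above, and 2.06% with the adjusted p, and since the stretch was chosen after its values were seen no test of it was made. *LOC108634188*, which was not listed for MII, was at 6.04 and 2.61 FPKM in the NC and 20.8 and 27.8 FPKM in the *YTHDF2* siRNA libraries (log2 fold change 2.31, SE 0.46, adjusted p = 0.0114). *LOC102180826* was at 15.4 and 4.41 FPKM and 48.2 and 46.7 FPKM (log2 fold change 2.36, SE 0.50, adjusted p = 0.015). For both genes the *YTHDF2* siRNA libraries were well apart from the NC libraries. The selected genes here without a call were the following. *LOC102190105* was at 386 and 289.9 FPKM in the NC and 450.2 and 749.8 FPKM in the *YTHDF2* siRNA libraries, a log2 fold change of 0.80. *LOC102190382* was at 49.1 and 29.9 FPKM in the NC and 53.2 and 79.4 FPKM in the *YTHDF2* siRNA libraries, a log2 fold change of 0.75. *LOC102177051* was at 125 and 95.2 FPKM in the NC and 62.3 and 142 FPKM in the *YTHDF2* siRNA libraries, a log2 fold change of -0.21. The last was the only gene of the 12 with a log2 fold change below 0.

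**Figure D4:**
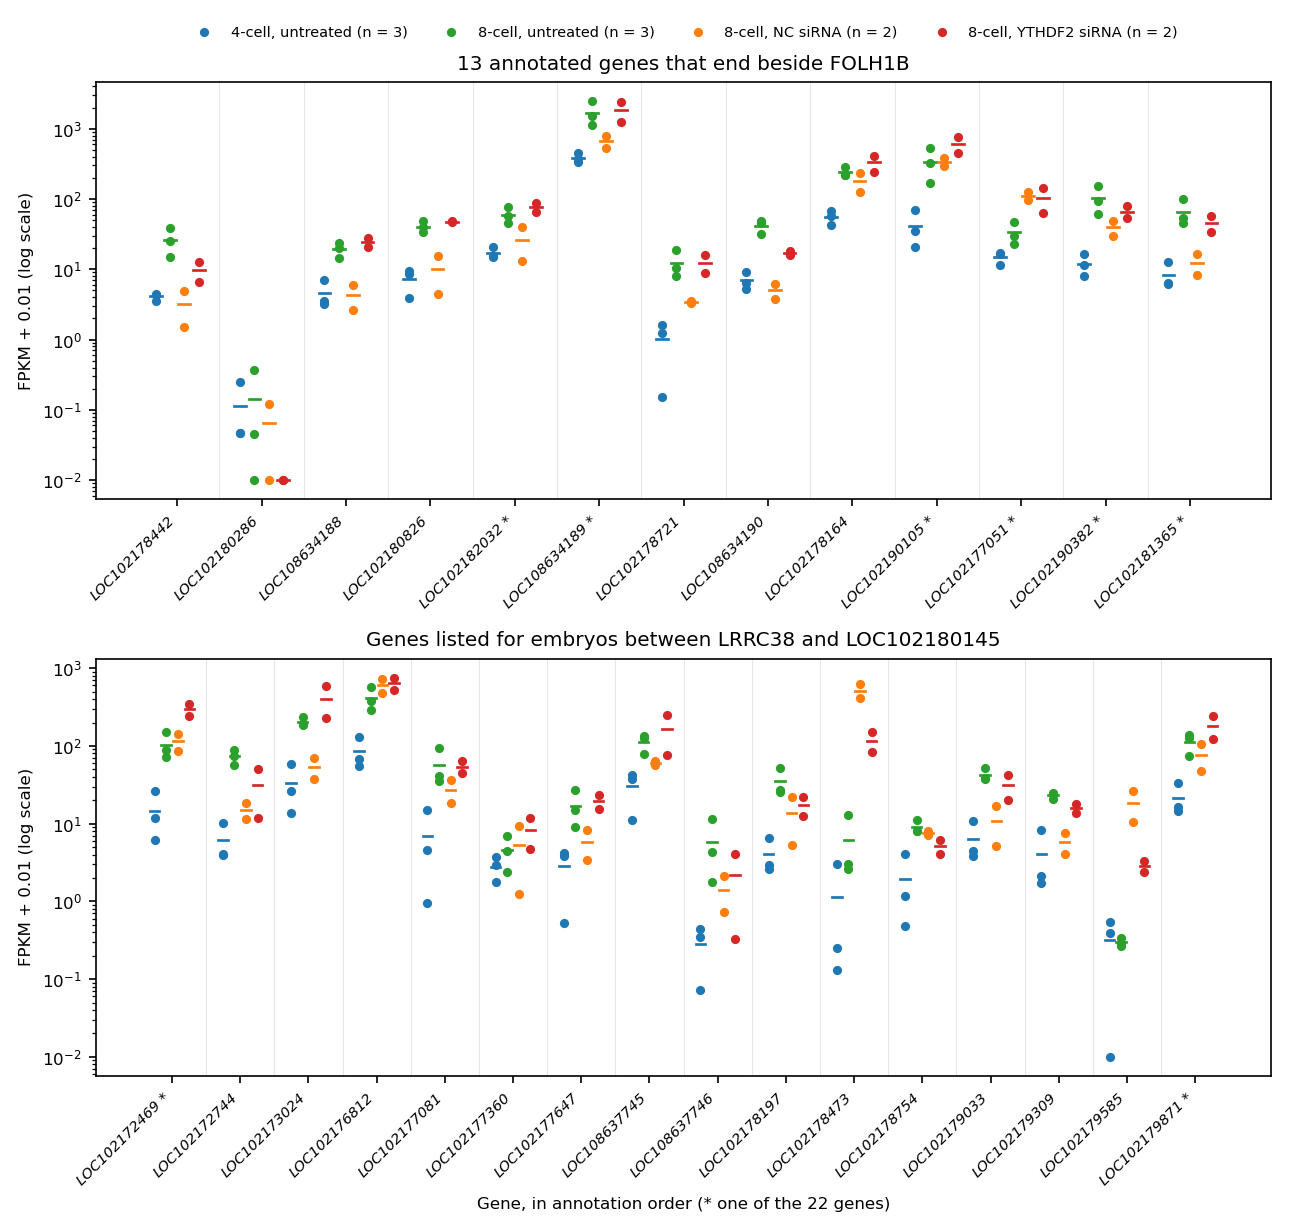
FPKM on a log axis (0.01 added) of the genes in 2 stretches in annotation order, with a point per library for 4-cell, 8-cell, NC and *YTHDF2* siRNA embryos, a line at each group mean, and an asterisk on the selected genes. In both stretches most genes sit higher in 8-cell than in 4-cell libraries. This is without overlap for 12 of 13 in the upper and 13 of 16 in the lower panel, against 11.6% of all genes tested. In *YTHDF2* siRNA against NC embryos 8 genes in each stretch are called higher and 0 and 2 lower. Of all genes tested, 9.48% are called higher and 15.3% lower.

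A second stretch ran from *LOC102172469*, which lies beside *LRRC38* and *PDPN*, to *LOC102179871*, 20 annotated genes with both ends in the set. Of these, 16 were listed for embryos, and 13 had every 8-cell library above every 4-cell library, where 11.6% of all genes tested did. For MII 8 were listed, 7 of them below 1 FPKM in each MII library, including the 2 selected ones. *LOC102172469* was at 11.8, 26.2 and 6.21 FPKM in the 4-cell and 71.7, 151 and 89.3 FPKM in the 8-cell libraries (log2 fold change 2.88, SE 0.45, adjusted p = 0.00831), a pseudogene by annotation. *LOC102179871* was at 14.8, 33.0 and 16.2 FPKM in the 4-cell and 138, 128 and 73.3 FPKM in the 8-cell libraries (log2 fold change 2.39, SE 0.33, adjusted p = 0.00641). Between them, *LOC102176812* missed the selection with 1.16 FPKM in an MII library and was at 68.5, 132 and 55.3 FPKM in 4-cell and 292, 575 and 379 FPKM in 8-cell libraries (log2 fold change 2.31, SE 0.35, adjusted p = 0.00781). *LOC102173024*, not listed for MII, was at 26.5, 59.0 and 13.7 FPKM and then 193, 236 and 184 FPKM. Both had higher values at the 8-cell stage in every library. Before the first gene, *LRRC38* had a mean of 0.10 FPKM in 8-cell libraries, and *PDPN*, at 2.68 to 3.13 FPKM in 4-cell and 4.23 to 6.64 FPKM in 8-cell libraries, did not overlap between them but was not called (log2 fold change 0.60, adjusted p = 0.152). The rise went on past the other end, which was set by the last selected gene: *LOC102180145* was at 0 in each MII, 1.80, 18.7 and 6.80 FPKM in 4-cell and 50.6, 113 and 69.7 FPKM in 8-cell libraries (log2 fold change 3.31, SE 0.60, adjusted p = 0.013). The gene after it, *LOC102180412*, was not called (log2 fold change 0.59, adjusted p = 0.411).

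With *YTHDF2* siRNA 8 of the 16 tested genes of the second stretch were increased and 2 decreased, 3 and 2 with the adjusted p, where 9.48% of all genes tested were increased and 15.3% decreased, and 2.06% and 5.92% with the adjusted p. The 3 and 2 became 0 and 0 without the filter on low values and 1 and 1 with quantile normalization. They became 1 and 2 with median-ratio rescaling or a block for replicate number. Without NC replicate 2 the increased genes numbered 2, and without *YTHDF2* siRNA replicate 2 they numbered 5. With the adjusted p the increased genes numbered 1 without NC replicate 2 or without *YTHDF2* siRNA replicate 2 and 8 without *YTHDF2* siRNA replicate 1, and the decreased genes numbered 0 without NC replicate 1. *LOC102173024* was at 70.6 and 37.4 FPKM in the NC and 228 and 586 FPKM in the *YTHDF2* siRNA libraries (log2 fold change 2.81, SE 0.48, adjusted p = 0.00598). The 2 decreased genes, *LOC102178473* and *LOC102179585* had little RNA in untreated embryos. *LOC102178473* was at 0.242, 3.06 and 0.121 FPKM in 4-cell, 3.02, 12.9 and 2.57 FPKM in untreated 8-cell, 620.3 and 412 FPKM in NC and 151 and 83.0 FPKM in *YTHDF2* siRNA libraries (log2 fold change -2.16, SE 0.41, adjusted p = 0.00947). *LOC102179585* was at 0 to 0.54 FPKM in untreated embryos, 26.3 and 10.5 FPKM in NC and 2.39 and 3.28 FPKM in *YTHDF2* siRNA libraries (log2 fold change -2.21, SE 0.48, adjusted p = 0.0167). In both, each *YTHDF2* siRNA library was below each NC library. *LOC102180145* past the end had a log2 fold change of 0.08 (adjusted p = 0.895).

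Not every selected gene had such neighbours. *LOC102191731* and *LOC102180074* are separated by 8 annotated genes. Of these 10 genes only the selected pair had every 8-cell library above every 4-cell library, where 11.6% of all genes tested did. With *YTHDF2* siRNA 0 of the 9 tested genes among these were increased and 2 decreased, neither with the adjusted p, where 9.48% and 15.3% of all genes tested were, and the median log2 fold change was -0.57. *LOC102187621*, next to *LOC102180074*, was at 14.8, 16.3 and 15.0 FPKM in MII, 25.7, 29.4 and 27.4 FPKM in 4-cell and 17.7, 20.6 and 18.8 FPKM in 8-cell libraries. Around *LOC102181711* the neighbours *FBXO17*, *LOC108638066*, *LOC108638067* and *LOC102182249* also had every 8-cell library above every 4-cell library, from lower levels at the 4-cell stage. The share over all genes tested was 11.6%. *FBXO17* was at 0 to 0.0701 FPKM in 4-cell and 0.124 to 0.683 FPKM in untreated 8-cell libraries. *LOC108638066*, not listed for MII, was at 0.790, 5.28 and 0.943 FPKM in 4-cell, 59.8, 60.5 and 23.1 FPKM in untreated 8-cell and 190.4 and 238 FPKM in NC libraries. *LOC108638067* was at 0, 0.171 and 0.0640 FPKM in 4-cell, 8.15, 1.74 and 0.333 FPKM in untreated 8-cell and 196 and 217 FPKM in NC libraries. *LOC102182249* was at 0 in each MII and 4-cell library, 6.73, 4.91 and 0.158 FPKM in untreated 8-cell and 202 and 288 FPKM in NC libraries. The last 2 were thus close to 0 at the 4-cell stage, when *LOC102181711* was at 31.6 to 80.8 FPKM.

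Genes known from genome activation in other mammals were set beside the unnamed ones. The list does not hold *ARGFX* and *DUXA*, which passed both limits and were set aside by name. Of its 16 genes in the tables, 12 were below 1 FPKM in each MII library, and none of these reached 5 FPKM in each 4-cell library. Of the 11 that could be tested from the 4-cell to the 8-cell stage 7 were increased and 0 decreased in limma, with a median log2 fold change of 1.51, where 4.55% of all genes tested were increased. With the adjusted p 3 were increased, *KLF4*, *KLF17* and *TFAP2C*, against 2.29% of all genes. *KLF17*, which encodes a Krüppel-like transcription factor, was at 0.0218, 0.723 and 0.109 FPKM in 4-cell and 5.52, 8.89 and 1.96 FPKM in 8-cell libraries. *OTX2*, which encodes a homeobox transcription factor, was at 2.66, 5.89 and 7.49 FPKM and then 13.3, 31.4 and 9.63 FPKM, and missed the set by 1 library. Both were at levels below those of most of the set in the 4-cell libraries. In *YTHDF2* siRNA embryos 0 of the 13 tested were increased in limma and 3 decreased, where 9.48% and 15.3% of all genes tested were, *OTX2* (386 and 472 FPKM in NC, 161 and 154 FPKM with *YTHDF2* siRNA), *KLF5* (37.8 and 33.6 FPKM in NC, 12.6 and 11.6 FPKM with *YTHDF2* siRNA) and *SPIC* (28.8 and 11.8 FPKM in NC, 1.05 and 3.59 FPKM with *YTHDF2* siRNA). Whether the named and the unnamed genes differ in their response was not tested.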

How the data were processed

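RNA was measured in 13 libraries. The authors amplified polyadenylated RNA with Smart-seq2. Their alignment (HISAT2, goat assembly ARS1) was restricted to reads with a unique position, gene counts came from HTSeq, and each library was normalized to FPKM. The deposited tables hold FPKM values, and no column of values was left unused. Groups follow the labels. The NC libraries are titled WT, and their treatment label is injection of NC siRNA. The genes and lists were chosen with earlier results of these data known. Since 21 of the 22 genes have no symbol, the planned rule for naming genes by symbol would have left *RSRP1* alone, and all 22 are named. Genes just outside the limits were named by that rule, and the neighbouring genes after their values were seen.

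Linear models were made with limma 3.58.1 under R 4.3.3 (lmFit, contrasts.fit, eBayes with trend) on log2(FPKM + 1), for genes whose mean reached 1 FPKM, with the 9 untreated libraries in one fit and the 4 injected libraries in another. Fold changes are on this scale, which understates those of low genes. A gene was called where it changed by over 2-fold at an unadjusted p below 0.05, the cut-offs the authors used with DESeq2, and the Benjamini-Hochberg adjusted p over all genes of the fit stands beside it. All adjusted p in the text come from limma. Fits were tested on simulated data. Whole fragments were recovered for 17898 of 17918 shared genes above 0 from the steps of the FPKM values (tolerance 0.02), and for all 22 genes. Replicates correlated at 0.854 to 0.978 (Pearson, log2 scale, across genes). Gene order and biotype come from RefSeq for a later release of the assembly (99.8% of names matched), so no coordinates are given. Alternatives were another pseudocount, no filter, 3 rescalings, a replicate block, other limits, and leaving out each library. Other steps ran in Python 3.11.15 (numpy 2.4.6, pandas 2.3.3, matplotlib 3.10.9).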

Additional observations from a re-analysis of the deposited data

How the results depend on the processing

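The rise of the genes from the 4-cell to the 8-cell stage kept its direction and its call under the other pseudocount, no filter, the 3 rescalings, the replicate block, the 6 embryo libraries alone and, chosen after seeing the data, limma voom on the recovered fragments. Under each of these 15 genes were increased, 12 to 15 with the adjusted p. Leaving out 1 library gave 14 to 16 increased, 12 to 15 with the adjusted p, 0 to 1 decreased and a median log2 fold change of 1.76 to 2.102. Setting libraries to equal summed FPKM moved the median of all genes to 0.16. With group means past the limits 50 genes were selected, and 13 with a 4-cell limit of 10 FPKM, while an MII limit of 0.5 FPKM gave 17 and equal summed FPKM 18.

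With *YTHDF2* siRNA the 3 genes increased by the adjusted p became 1 at a pseudocount of 0.1 FPKM, 0 without the filter, with median-ratio rescaling, with quantile normalization and with the replicate block, and 0 to 6 when 1 library was left out. The cause was not tested. The increased genes by the unadjusted p numbered 2 to 8 without 1 library. The decreased gene was lost (0) with equal summed FPKM and quantile normalization, and 0 to 3 were decreased without 1 library. The median log2 fold change was -0.014 with median-ratio rescaling and 0.18 to 0.21 without 1 library. Same-numbered libraries correlated at -0.51 to 0.15 between 4-cell and 8-cell groups, and those of different number at -0.37 to 0.51. These values gave no sign of a pairing by number. Between the injected groups same-numbered libraries correlated at -0.152 and the others at 0.152. With 2 libraries per group these values mirror each other, so they cannot show whether the numbers pair the libraries. The replicate block left 15 and 6 increased genes by the unadjusted p. A crossed pairing of the injected libraries, chosen after seeing the data, gave 6 by either p. It blocks the pairs with the positive correlation, so its adjusted p are no independent check. In the 2 stretches the block left 2 and 1 genes increased by the adjusted p.

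Over all genes tested, the 414 increases from the 4-cell to the 8-cell stage became 818 without 8-cell replicate 2, and 286 to 818 without 1 library. With the adjusted p the 208 increases and 288 decreases became 130 and 162 with the replicate block, 98 and 167 in the 6 embryo libraries alone, and 79 to 193 and 134 to 292 without 1 library, and the decreases became 184 with equal summed FPKM. With *YTHDF2* siRNA the 1043 increases became 545 without NC replicate 2. With the adjusted p the 227 increases and 651 decreases became 0 and 0 without the filter, 68 and 336 with median-ratio rescaling, 76 and 210 with quantile normalization, 78 and 383 with the replicate block, 688 and 1378 with the crossed pairing, and 50 to 481 and 245 to 1136 without 1 library.

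Some single genes without a call changed sign. From the 4-cell to the 8-cell stage *LOC102175174* was at 0.020 with equal summed FPKM, and without 1 library *LOC102186003* ranged from -0.012 to 0.64 and *LOC108634776* from -0.38 to 0.061. With *YTHDF2* siRNA *LOC102186003* was at -0.014 with median-ratio rescaling and *LOC102181711* at 0.17 with quantile normalization, and without 1 library *LOC102186003* ranged from -0.17 to 0.18, *LOC108634776* from -0.27 to 0.37, *LOC108635041* from -0.39 to 0.25, *LOC102175174* from -0.64 to 0.205, *LOC108636355* from -0.52 to 0.20 and *LOC102177051* from -0.80 to 0.38.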
